A study of Mus musculus with 6 samples.

Results

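The genes described here are the ligands, receptors and SMAD proteins of the bone morphogenetic protein (BMP), growth differentiation factor (GDF) and transforming growth factor beta (TGF-beta) family. They were chosen by symbol alone: every gene of the deposited table named Bmp, Gdf or Tgfb with a number, the Tgfbr, Bmpr and Acvr receptors, and the numbered Smad genes. This gave 44 of 24028 genes, with 23 ligand genes, 12 receptor genes, 8 Smad genes and Bmp1. The RNA came from mouse oocytes that had finished growth and were arrested at the germinal vesicle stage, before meiotic maturation. All libraries came from females of a mixed FVB, 129/Sv and C57BL/6J background, about 3 months old, that were Ring1 -/- with floxed Rnf2 (Rnf2 f/f). In the 3 dKO libraries the females had Zp3-cre, a transgene in which the zona pellucida Zp3 promoter drives Cre recombinase during oocyte growth, and in the 3 control libraries they lacked it. Ring1 and Rnf2 encode the ubiquitin ligases at the core of Polycomb repressive complex 1, so the comparison asks which RNAs differ when oocytes without Ring1 also lose Rnf2. The transgene itself and the loss of Rnf2 cannot be told apart in this design, and no library with intact Ring1 was measured. Each library held 15 oocytes of 1 female.

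In this family a dimeric ligand binds type II and type I receptor kinases, and the type I kinase phosphorylates receptor-regulated SMADs that enter the nucleus with Smad4. BMP-type receptors act through Smad1, Smad5 and Smad9, and TGF-beta and activin receptors through Smad2 and Smad3, while Smad6 and Smad7 inhibit the pathway. In the ovary the oocyte secretes GDF9 and BMP15, which act on the surrounding granulosa and cumulus cells. Of these, GDF9 is needed for follicle growth in the mouse.

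Values are FPKM, fragment counts divided by transcript length and by library size, so levels of different genes can be compared per length. Sums of FPKM ran from 318273 to 327480 in controls and from 278701 to 309549 in dKO libraries. Absolute depth is unknown, and depth relative to control replicate 1, read from low values, ran from 0.661 in dKO replicate 1 to 1.08 in dKO replicate 3. Rnf2 held 53.7, 46.8 and 48.2 FPKM in controls against 14.8, 8.44 and 5.31 FPKM in dKO libraries, which follows the genotype labels. The 10 oocyte markers were all measured in every library, with summed levels of 6010 to 6424 FPKM in controls and 3360 to 5111 FPKM in dKO libraries. Of them 3 fell (Ooep, Kit and Mos) and 0 rose (limma, Benjamini-Hochberg adjusted), against 7.04% and 14.0% of all tested genes. The number that fell was 0 when any 1 control was left out, 1 without dKO replicate 1 or without the filter, 6 without dKO replicate 2 and 7 with each library centred on its mean.

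Promoter sequences were available for 30 of the 44 genes, from RefSeq on build GRCm38.p6, which is not the build mm9 of the expression table. The windows shown are the 250 bases before the annotated start, 5′ to 3′ on the gene's strand, with every CG dinucleotide in capitals. They set 3 genes that rose (Bmp4, Gdf11, Acvr1) beside 2 that fell (Tgfb2, Bmp15) and were chosen after the calls were seen.
Bmp4 (chr14:46390670-46390919, minus strand): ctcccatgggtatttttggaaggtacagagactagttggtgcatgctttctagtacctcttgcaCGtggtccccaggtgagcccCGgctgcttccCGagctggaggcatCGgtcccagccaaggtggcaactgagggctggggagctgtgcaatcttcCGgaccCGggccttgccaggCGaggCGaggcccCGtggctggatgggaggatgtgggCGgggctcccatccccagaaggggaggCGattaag
Gdf11 (chr10:128891719-128891968, minus strand): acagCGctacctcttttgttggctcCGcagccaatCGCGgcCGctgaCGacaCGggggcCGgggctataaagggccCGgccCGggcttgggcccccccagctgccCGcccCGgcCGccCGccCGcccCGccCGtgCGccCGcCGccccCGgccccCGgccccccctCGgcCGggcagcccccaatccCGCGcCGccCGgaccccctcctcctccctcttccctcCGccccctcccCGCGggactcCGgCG
Acvr1 (chr2:58566829-58567078, minus strand): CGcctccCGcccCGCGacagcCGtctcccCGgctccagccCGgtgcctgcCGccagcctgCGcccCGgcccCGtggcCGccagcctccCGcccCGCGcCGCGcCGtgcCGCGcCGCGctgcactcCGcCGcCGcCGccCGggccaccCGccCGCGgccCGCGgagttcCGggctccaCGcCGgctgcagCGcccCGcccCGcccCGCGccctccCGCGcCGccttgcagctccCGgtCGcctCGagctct
Tgfb2 (chr1:186705990-186706239, minus strand): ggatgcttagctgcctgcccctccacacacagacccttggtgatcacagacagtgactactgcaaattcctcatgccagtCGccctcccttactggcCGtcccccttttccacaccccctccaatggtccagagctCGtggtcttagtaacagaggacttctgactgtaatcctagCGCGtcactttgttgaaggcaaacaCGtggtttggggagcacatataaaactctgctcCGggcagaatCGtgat
Bmp15 (chrX:6320725-6320974, minus strand): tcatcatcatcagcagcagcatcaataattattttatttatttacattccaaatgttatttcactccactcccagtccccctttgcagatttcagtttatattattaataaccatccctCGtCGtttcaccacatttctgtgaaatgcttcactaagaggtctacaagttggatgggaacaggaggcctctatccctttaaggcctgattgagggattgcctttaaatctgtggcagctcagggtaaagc
The windows of Bmp4, Gdf11 and Acvr1 held 11, 33 and 46 CG dinucleotides, and those of Tgfb2 and Bmp15 held 8 and 2. The family as a whole did not divide this way. Tgfbr1, which rose and is not shown, has windows with 29 and 3 CG. Its 15 windows of tested genes that were not called had a median of 22 CG, and the windows of 2 of these genes, Bmp5 (4 CG) and Bmpr1b (1 to 5 CG), were as poor in CG as the windows of the genes that fell. Over all 10912 windows of tested genes the median was 15, and over the 1515 windows of genes that rose it was 14. The E-box letters CANNTG, which read the same on both strands, stood in 18 of the 38 family windows (47.4%). The shares were 66.2% of all windows of this length and 58.3% of the windows of tested genes. TAATTG, a core of the element bound by the oocyte homeobox factor NOBOX, searched on both strands, stood in 2 of the family windows (Bmp10 and Bmpr1b). These were 5.26% of the family windows, against 7.17% of all windows and 4.89% of the windows of tested genes. TAATTG was in none of the windows shown.

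The dKO libraries contained RNA for ligands that control libraries hardly held (Bmp2, Bmp4 and Gdf11) or held at a low level (Bmp7). They also contained more Acvr1 and Tgfbr1 receptor RNA. They contained less Tgfb2, Tgfb3 and Bmp15 RNA. Of the 44 genes 24 had at least 1 FPKM in at least 3 libraries and were tested, and 6 rose, 3 fell and 15 did not pass (limma on log2(FPKM + 1), Benjamini-Hochberg adjusted over 11334 genes). Among all 11334 genes 14.0% rose and 7.04% fell (1587 and 798). Bmp2, Bmp4 and Gdf11 passed the filter only through their dKO values, so they had to be higher there, and 77.4% of the 1014 such genes with a control mean under 1 FPKM rose. Of the 21 family genes with a control mean of at least 1 FPKM 3 rose and 3 fell, against 7.77% and 7.73% of all 10320 such genes. Among the 21, Bmp7, which rose, and Acvr2b, which was not called, had a control under 1 FPKM. Each therefore needed a dKO library to pass the filter.

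The background split depended on scaling: after quantile normalization 1191 genes rose (10.5%) and 1073 fell (9.47%), and 6 family genes rose and 2 fell. With each library centred on its mean 1452 genes rose (12.8%) and 1572 fell (13.9%), and 5 family genes rose and 3 fell. Centring moved the median log2 change of all genes from -0.019 to -0.12. With the flow-cell lane as a block 8 family genes rose and 2 fell, against 14.8% and 7.83% of all genes. The dKO libraries also spread more. The SD of log2 values was larger in the dKO group for 21 of the 24 tested family genes, against 80.2% of all tested genes. For cell types other than the 15 oocytes of each library, fewer cells and less RNA per cell cannot be told apart in bulk RNA.

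**Figure D1:**
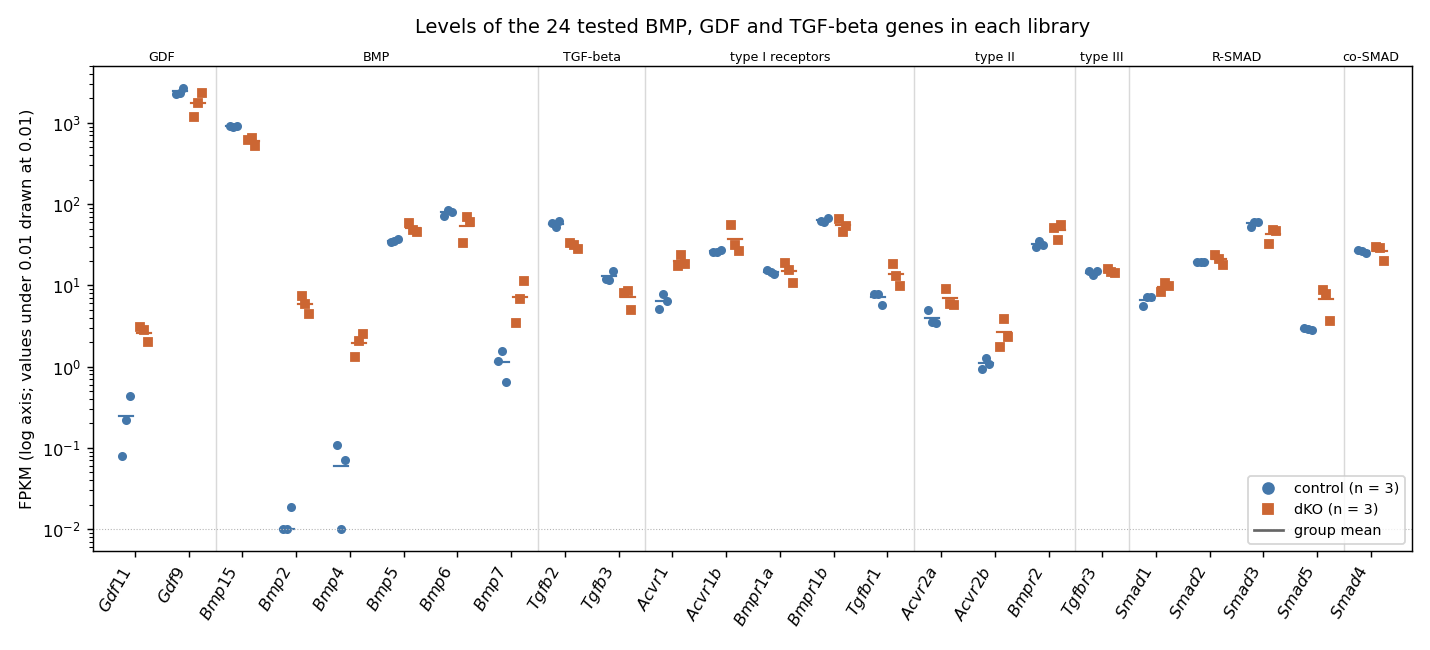
FPKM of the 24 tested family genes in each library on a log axis, with 3 control and 3 dKO libraries, group means as short lines and genes ordered by role. Gdf9 and Bmp15 stand far above the rest in both groups, and the control points of Bmp2 lie under 0.02 FPKM.

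Gdf9 and Bmp15 were by far the most abundant RNAs of the family in both groups. Gdf9 held 2238, 2363 and 2706 FPKM in controls and 1179, 1777 and 2312 FPKM in dKO libraries. The groups overlapped, with dKO replicate 1 the lowest library and dKO replicate 3 inside the control range. On the log2 scale dKO minus control came to -0.52 ± 0.29 (SE; limma adjusted p = 0.229), with a 95% interval from -1.17 to 0.13, which holds both no change and a larger fall than that of Bmp15. Bmp15 held 909, 894 and 910 FPKM in controls and 621, 645 and 512 FPKM in dKO libraries. All dKO libraries lay under all controls, which stood close together. Bmp15 fell by 0.62 ± 0.18 on the log2 scale (SE; limma adjusted p = 0.0418), to 65.5% of the control mean. This call was lost with the flow-cell lane as a block (limma adjusted p = 0.0740), without the filter (0.104), after quantile normalization (log2 change -0.28, 0.257) and when any 1 control or dKO replicate 1 was left out (0.0524 to 0.155).

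Both factors had lower means in dKO libraries, as had the summed oocyte markers. The part of a general difference in oocyte RNAs in these values was not tested. By level, Gdf9 ranked 4 to 6 of all genes in controls and 4 to 9 in dKO libraries, and Bmp15 ranked 17 to 21 and 25 to 36. The ratio of Gdf9 to Bmp15 was 2.46, 2.64 and 2.97 in controls and 1.90, 2.76 and 4.51 in dKO libraries, so the dKO ratios lay on both sides of the control range. Together they made up 94.7% ± 0.156 of the summed FPKM of the 23 ligand genes in controls and 93.4% ± 1.18 in dKO libraries (SD, n = 3).

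Bmp6 and Bmp5 were the most abundant other BMP ligands in control libraries, and neither passed the test. Bmp6, which oocytes secrete in growing follicles, held 70.6, 85.7 and 81.1 FPKM in controls and 33.0, 68.6 and 59.9 FPKM in dKO libraries. Its groups did not overlap, but dKO replicate 1 stood well under the others and the log2 change of -0.61 ± 0.26 did not pass (SE; limma adjusted p = 0.127). Bmp6 exons overlap those of Txndc5 on the other strand, and the use of strand in the deposited values is not given in the sources used here. Bmp5, a close relative of Bmp6 and Bmp7, held 34.4, 35.4 and 36.9 FPKM in controls and 57.8, 47.9 and 45.5 FPKM in dKO libraries. Every dKO library was above every control, with a log2 change of 0.49 ± 0.15 that stood at the threshold (SE; limma adjusted p = 0.0504).

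Of the TGF-beta ligands Tgfb2 and Tgfb3 fell, and the exons of both overlap those of other genes on the other strand. Tgfb2, the main TGF-beta ligand RNA here, held 58.1, 52.9 and 61.6 FPKM in controls and 33.6, 31.0 and 27.9 FPKM in dKO libraries. The dKO libraries stood close together at 53.7% of the control mean, and Tgfb2 fell by 0.88 ± 0.15 on the log2 scale (SE; limma adjusted p = 0.00338). This call held under all 15 alternatives. Tgfb3 held 12.1, 11.8 and 14.9 FPKM in controls and 8.08, 8.46 and 4.92 FPKM in dKO libraries, again with no overlap, and fell by 0.80 ± 0.23 (SE; limma adjusted p = 0.0388). Its call was lost without the filter (limma adjusted p = 0.0711), with array weights (0.0522), and when any 1 control or dKO replicate 3 was left out (0.0501 to 0.159). Tgfb1, the form common in immune and stromal cells, was under 0.08 FPKM in every library.

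Ligand RNAs nearly absent from controls appeared in every dKO library. Bmp2, which acts in bone and heart formation, held 0.00957, 0 and 0.0188 FPKM in controls and 7.45, 5.83 and 4.42 FPKM in dKO libraries. Its log2 change on the FPKM + 1 scale was 2.75 ± 0.21 (SE; limma adjusted p = 5.08e-05), the largest of the 24. Bmp4, the ligand that induces primordial germ cells in the embryo, held 0.108, 0.00284 and 0.0705 FPKM in controls and 1.31, 2.08 and 2.49 FPKM in dKO libraries. It rose by 1.46 ± 0.19 (SE; limma adjusted p = 0.00091), and Gm15217 overlaps its exons on the other strand. Gdf11, which patterns the trunk along the body axis, held 0.0801, 0.222 and 0.432 FPKM in controls and 3.06, 2.78 and 2.01 FPKM in dKO libraries, and rose by 1.54 ± 0.20 on the log2 scale (SE; limma adjusted p = 0.000762).

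Bmp7, which acts in kidney and eye development, was low but present in controls, at 1.19, 1.55 and 0.655 FPKM. In dKO libraries it held 3.46, 6.71 and 11.2 FPKM, the widest spread among the rising ligands, and it rose by 1.83 ± 0.36 on the log2 scale (SE; limma adjusted p = 0.00682). Bmp7, Bmp4 and Gdf11 kept their calls under all 14 alternatives that tested them, and Bmp2 likewise. Ligands at 1 FPKM or more numbered 6.67 ± 0.577 per control library and 10.3 ± 0.577 per dKO library (SD, n = 3). The summed FPKM of ligands other than Gdf9 and Bmp15 was nonetheless 187 ± 9.66 in controls and 162 ± 12.5 in dKO libraries (SD, n = 3). In every dKO library Bmp2, Bmp4, Bmp7 and Gdf11 stayed under Bmp6, Bmp5 and Tgfb2 in level.

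Some markers of granulosa cells, which were stripped from the oocytes by pipetting, differed in the same libraries. The summed level over 14 such genes was 26.9 to 32.6 FPKM in controls and 49.0 to 50.1 FPKM in dKO libraries. The largest rises in FPKM were those of Fshr (0.158 and 10.6 FPKM on average) and Nr5a2 (16.5 and 25.5 FPKM). Of the 6 tested 3 rose (Fshr, Nr5a2 and Wt1), against 14.0% of all genes. Fshr and Wt1 passed the filter only through their dKO values, and 77.4% of all kept genes with a control mean under 1 FPKM rose. Cyp19a1, the aromatase gene, was lower in every dKO library than in any control, at 9.94 and 5.78 FPKM on average, and stood at the threshold (limma adjusted p = 0.05004). It passed as lower at a pseudocount of 0.1, after median-ratio scaling, after quantile normalization and with centring. The defining genes Amh and Foxl2 were at most 1.04 FPKM in controls and 0.684 FPKM in dKO libraries. The groups overlapped for both, and for Inha, Kitl, Hsd17b1, Cyp11a1, Star and Fst. Gja1 and Lhcgr, below the filter, were higher in every dKO library than in any control. The 9 stromal and thecal markers summed to 1.04 to 1.15 FPKM in controls and 6.09 to 10.3 FPKM in dKO libraries. Nr2f2, the 1 tested, rose from 0.521 to 4.64 FPKM on average (limma adjusted p = 0.000969). It passed the filter only through its dKO values, so its direction was fixed. Dcn, Pdgfra, Lum, Col1a1 and Col3a1, below the filter, were also higher in every dKO library than in any control. The groups overlapped for Acta2 (0.225 and 0.519 FPKM on average), Cyp17a1 (0.0713 and 0.0361 FPKM) and Col1a2 (0.0024 and 0 FPKM). The 6 endothelial markers summed to 24.2 to 33.1 FPKM in controls and 19.5 to 26.6 FPKM in dKO libraries. Most of this was Pecam1, which fell from 25.2 to 14.9 FPKM on average (limma adjusted p = 0.0280), while Tek, at 4.05 and 5.43 FPKM, did not pass (0.236). Kdr (0.424 and 1.46 FPKM on average) and Cldn5 (0.00867 and 0.638 FPKM) were below the filter and higher in every dKO library than in any control. Cdh5 was at 0 in all controls and Emcn in all libraries. Of the 11334 kept genes 22.3% were higher in every dKO library than in any control. This share was not computed for genes below the filter, so the markers listed there have no background. The part of such cells in the ligand RNAs was not tested.

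**Figure D2:**
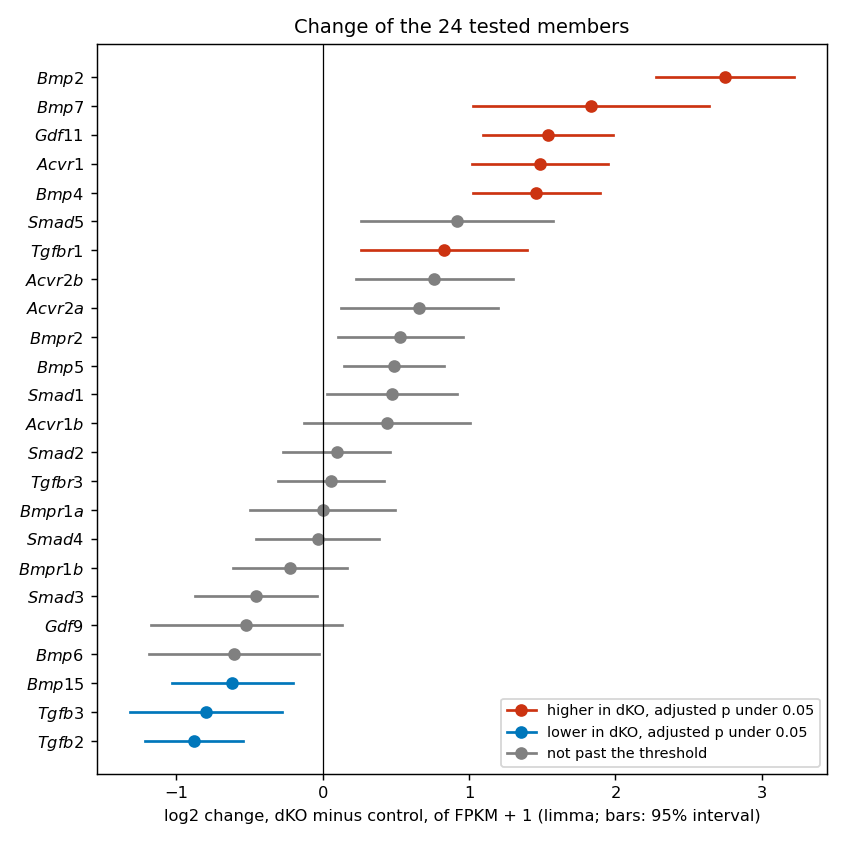
Log2 change of FPKM + 1, dKO minus control, for the 24 tested family genes, with 95% intervals from limma and colours by call. Bmp2 has the largest rise at 2.75 and Tgfb2 the largest fall at -0.88, and Bmpr1a sits at 0.

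Among type I receptors, Acvr1 and Tgfbr1 rose. Acvr1 (ALK2), a kinase for BMP signals, held 5.19, 7.78 and 6.35 FPKM in controls and 17.4, 23.5 and 18.4 FPKM in dKO libraries. Every dKO library stood far above every control, with a ratio of means of 3.07, and the log2 change of 1.48 ± 0.21 held under all 15 alternatives (SE; limma adjusted p = 0.00116). Tgfbr1 (ALK5), the kinase used by TGF-beta and GDF9, held 7.89, 7.72 and 5.70 FPKM in controls and 18.4, 13.0 and 9.77 FPKM in dKO libraries. It rose by 0.83 ± 0.25 (SE; limma adjusted p = 0.0450) with no overlap, and lost its call under 9 of 15 alternatives: no filter, the filter at 5 FPKM, quantile normalization, centring, and the removal of any 1 library other than dKO replicate 3 (limma adjusted p 0.0516 to 0.1697).

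The other type I receptors were led by Bmpr1b (ALK6), a kinase used by BMP15. It held 61.9, 60.8 and 68.1 FPKM in controls and 66.1, 45.0 and 53.6 FPKM in dKO libraries, which overlap (limma adjusted p = 0.383). The 95% interval of its log2 change ran from -0.61 to 0.17. Bmpr1a (ALK3), the BMP2 and BMP4 receptor, held 15.3, 14.8 and 13.7 FPKM in controls and 19.1, 15.3 and 10.6 FPKM in dKO libraries. The controls lay inside the dKO range, and the interval of the log2 change ran from -0.50 to 0.50. Acvr1b (ALK4), the activin receptor, held 25.6, 26.0 and 27.0 FPKM in controls and 55.1, 31.4 and 26.5 FPKM in dKO libraries, so dKO replicate 1 alone stood far above the controls (limma adjusted p = 0.241).

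The 3 tested type II receptors had higher values in every dKO library than in any control, but none passed the test. Bmpr2, the receptor for BMPs, BMP15 and GDF9, held 30.1, 35.2 and 31.0 FPKM in controls and 51.2, 36.1 and 55.1 FPKM in dKO libraries (limma adjusted p = 0.0784), with dKO replicate 2 close to the controls. Without that library it passed (limma adjusted p = 0.0128). Acvr2b, an activin receptor, held 0.924, 1.28 and 1.07 FPKM in controls and 1.75, 3.84 and 2.34 FPKM in dKO libraries (limma adjusted p = 0.0506). It passed with the lane as a block (limma adjusted p = 0.0321), at a pseudocount of 0.5 (0.0497), after median-ratio scaling (0.0373), with array weights (0.0363) and without dKO replicate 1 (0.0280). Acvr2a, its close relative, held 4.96, 3.50 and 3.42 FPKM in controls and 9.004, 5.96 and 5.73 FPKM in dKO libraries (limma adjusted p = 0.0816). Acvr2a exons overlap those of Orc4 on the other strand. Tgfbr3, betaglycan, which presents TGF-beta2 and inhibins to the receptors, held 14.8, 13.3 and 15.0 FPKM in controls and 16.1, 14.7 and 14.2 FPKM in dKO libraries. Its log2 change had an interval from -0.30 to 0.42.

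Over all kept genes 41.5% had groups that did not overlap, 22.3% with higher and 19.2% with lower dKO values. Of the 24 tested family genes 12 had higher and 5 lower dKO values without overlap, and 7 overlapped.

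No SMAD gene passed the test. Smad3, the most abundant of them, held 52.5, 61.0 and 60.01 FPKM in controls and 32.4, 48.0 and 47.2 FPKM in dKO libraries. The dKO values were lower without overlap, by -0.45 ± 0.18 on the log2 scale (SE; limma adjusted p = 0.115). Smad2, which shares its receptors, held 19.4, 19.2 and 19.6 FPKM in controls and 23.8, 21.0 and 17.9 FPKM in dKO libraries, on both sides of the controls. Smad4, the partner of all receptor-regulated SMADs, held 27.0, 26.8 and 25.2 FPKM in controls and 29.6, 29.0 and 19.8 FPKM in dKO libraries. The intervals of their log2 changes ran from -0.27 to 0.46 and from -0.45 to 0.39.

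Of the BMP-type SMADs, Smad5 and Smad1 had higher values in every dKO library than in any control, and Smad9 did not. Smad5 held 2.97, 2.92 and 2.82 FPKM in controls and 8.73, 7.89 and 3.64 FPKM in dKO libraries, so dKO replicate 3 lay close to the controls. Its log2 change of 0.92 ± 0.29 did not pass (SE; limma adjusted p = 0.0539), but did with the lane as a block (0.0322), after median-ratio scaling (0.0390), with array weights (0.0195) and without dKO replicate 3 (log2 change 1.25, 0.00320). Smad1 held 5.57, 7.12 and 7.27 FPKM in controls and 8.29, 10.6 and 9.95 FPKM in dKO libraries (limma adjusted p = 0.121). Smad9, below the filter, held 0.360, 0.517 and 0.561 FPKM in controls and 0.388, 0.286 and 0.315 FPKM in dKO libraries, which overlap.

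Smad7 and 19 other family genes were below the filter. Smad7, an inhibitor that BMP and TGF-beta signals induce, held 0.0987, 0.0588 and 0.0149 FPKM in controls and 3.95, 2.45 and 0.666 FPKM in dKO libraries. The groups did not overlap, but only 2 libraries reached 1 FPKM. Fitted without the filter, over 20310 genes, its log2 change of 1.53 did not pass (limma adjusted p = 0.0593). Smad6, the inhibitor of BMP signals, was at 0.128, 0.0129 and 0.0570 FPKM in controls and 0.0703, 0 and 0.0322 FPKM in dKO libraries.

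**Figure D3:**
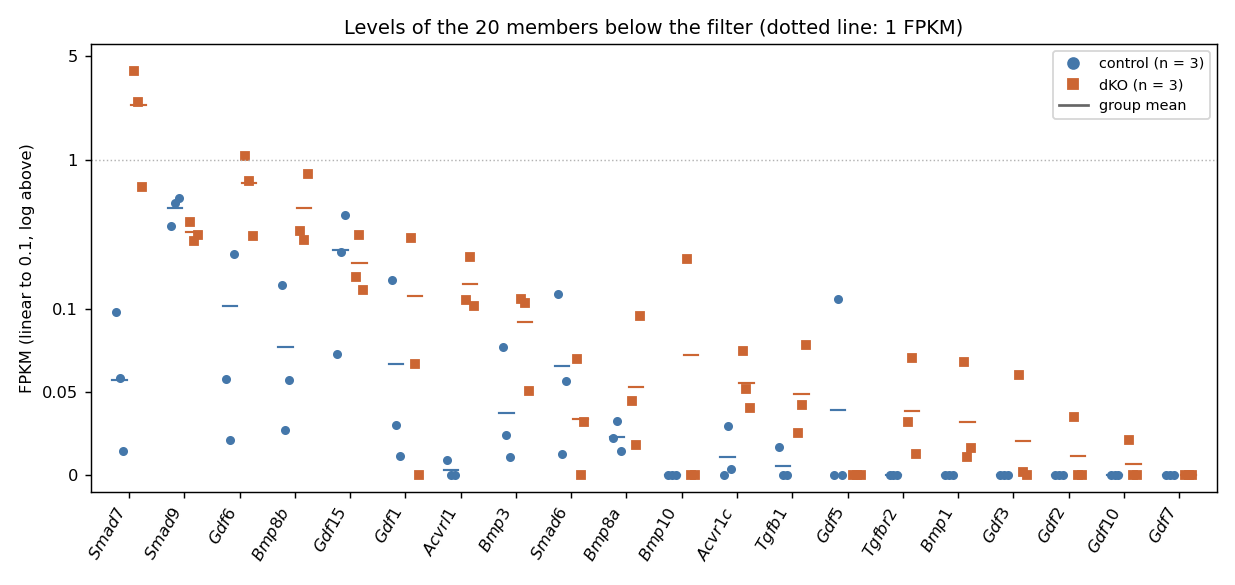
FPKM of the 20 family genes below the filter in each library, on an axis that is linear to 0.1 and logarithmic above, with group means as short lines. Smad7 reaches 3.95 FPKM in a dKO library, and no other gene exceeds 1.07 FPKM.

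No control value among these 20 genes was above 0.561 FPKM, and 7 of them were listed at 0 in all controls. Gdf6, a relative of Gdf5 and Gdf7, held 0.0580, 0.0214 and 0.237 FPKM in controls and 1.07, 0.720 and 0.312 FPKM in dKO libraries. Bmp8b, which acts in germ cell development, held 0.147, 0.0275 and 0.0576 FPKM in controls and 0.338, 0.294 and 0.805 FPKM in dKO libraries. Neither passed without the filter (limma adjusted p = 0.0866 and 0.0964). Acvrl1 (ALK1), an endothelial receptor kinase, held 0.00954, 0 and 0 FPKM in controls and 0.116, 0.225 and 0.106 FPKM in dKO libraries. It passed without the filter (limma adjusted p = 0.0428), at levels where a few fragments decide the value.

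Gdf15, a stress-induced ligand, held 0.0731 to 0.430 FPKM in controls and 0.135 to 0.318 FPKM in dKO libraries, which overlap. Gdf1 was at most 0.303 FPKM, and its exons overlap those of Cers1 on the same strand. Bmp3, Bmp8a, Bmp10, Gdf2, Gdf3, Gdf5, Gdf10, Acvr1c and Tgfbr2, the type II receptor for TGF-beta, were all under 0.25 FPKM in every library, and Gdf7 was at 0 in every library. Bmp1, a protease that trims procollagen and is no ligand, was at 0 in controls and at most 0.0684 FPKM in dKO libraries. Without the filter, over the 43 family genes above 0 in any library, 7 rose and 1 fell, against 9.88% and 2.68% of 20310 genes, with a median log2 change of 0.062 against 0.029.

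The rest of the pathway was described by 106 measured genes on 9 lists of other ligands, antagonists, latency and processing factors, co-receptors, regulators, nuclear partners and targets. The test took in 51 of them and called 16 higher and 3 lower, against 14.0% and 7.04% of all tested genes. A control mean under 1 FPKM was found for 11 of the 51, and 10 of these 11 rose, against 77.4% of all such genes. Of the 40 with a higher control mean 6 rose and 3 fell, against 7.77% and 7.73% of all such genes.

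Among the other ligands, Inhba, which encodes the activin A subunit, rose, as did 77.4% of kept genes with a control mean under 1 FPKM. It passed the filter only through its dKO values, so its direction was fixed. It held 0.534, 0.376 and 0.9996 FPKM in controls and 1.80, 2.02 and 4.44 FPKM in dKO libraries, with a rise of 1.15 ± 0.28 on the log2 scale (SE; limma adjusted p = 0.0204). The call was lost without the filter (limma adjusted p = 0.0712), after quantile normalization (0.142) and without control replicate 1 or 2 (0.0757 and 0.0842). Inha, the inhibin alpha subunit, held 1.09 ± 0.509 FPKM in controls and 1.64 ± 0.529 FPKM in dKO libraries (SD, n = 3; limma adjusted p = 0.327), and the activin antagonist Fst was at most 0.390 FPKM. Inha and Fst also stand on the granulosa list.

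Of 19 extracellular antagonists 9 were tested, of which 2 rose and 0 fell, against 14.0% and 7.04% of all tested genes. Both that rose passed the filter only through their dKO values, so their direction was fixed by it. Of all kept genes with a control mean under 1 FPKM 77.4% rose. Chrdl1, a chordin-like protein that binds BMPs, held 0.0403, 0.465 and 0.237 FPKM in controls and 36.2, 14.4 and 19.7 FPKM in dKO libraries. It rose by 4.21 ± 0.32 on the log2 scale (SE; limma adjusted p = 5.25e-05). Crim1, a membrane protein that binds BMPs, held 0.0444, 0.0430 and 0 FPKM in controls and 3.18, 2.15 and 1.37 FPKM in dKO libraries (limma adjusted p = 0.00106). The 7 that did not pass included Grem1, at 0.605 and 2.42 FPKM on average (limma adjusted p = 0.0903), which passed with the lane as a block (0.0124) and without dKO replicate 1 (0.0118), and Twsg1, at 5.79 and 5.47 FPKM.

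Among 12 latency and processing genes, 7 of them tested, 3 rose and 1 fell, against 14.0% and 7.04% of all tested genes. Ltbp1 passed the filter only through its dKO values, so its direction was fixed. Of all kept genes with a control mean under 1 FPKM 77.4% rose. Ltbp1, which holds latent TGF-beta in the matrix, held 0.0930, 0.0542 and 0.0864 FPKM in controls and 3.20, 3.08 and 3.81 FPKM in dKO libraries (log2 change 2.01; limma adjusted p = 7.03e-05). Lrrc32 (GARP), which anchors latent TGF-beta at the cell surface, held 4.45, 4.997 and 2.82 FPKM in controls and 7.24, 13.3 and 19.1 FPKM in dKO libraries (limma adjusted p = 0.0170), and did not pass without the filter (0.0602) or without control replicate 3 (0.0737). The proprotein convertases, which cleave ligand precursors, went opposite ways. Pcsk6 held 2.57, 3.77 and 2.55 FPKM in controls and 6.89, 9.66 and 6.72 FPKM in dKO libraries (limma adjusted p = 0.00779). Furin held 47.5, 53.8 and 56.7 FPKM in controls and 21.9, 40.8 and 29.0 FPKM in dKO libraries (limma adjusted p = 0.0318), and lost its call without the filter (0.0773) or when any 1 library other than dKO replicate 2 was left out (0.0550 to 0.123).

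Of 6 co-receptor genes 2 were tested and 1 rose, against 14.0% of all tested genes. This was the BMP co-receptor Rgma, at 0, 0.0737 and 0 FPKM in controls and 2.39, 2.24 and 1.40 FPKM in dKO libraries (limma adjusted p = 0.000520). Rgma passed the filter only through its dKO values, so its direction was fixed. Among all kept genes with a control mean under 1 FPKM 77.4% rose. Among 19 intracellular regulators, 16 of them tested, 0 rose and 2 fell, against 14.0% and 7.04% of all tested genes. With the lane as a block 2 rose, Strap (limma adjusted p = 0.0471, against 0.0538 without the block) and Tob1 (0.00833, against 0.118), and 1 fell. Both also passed without dKO replicate 3 (0.0355 and 0.0120). Nedd4l, a ubiquitin ligase for SMAD2 and SMAD3, held 24.8, 21.2 and 23.0 FPKM in controls and 6.95, 12.3 and 11.5 FPKM in dKO libraries (log2 change -1.13; limma adjusted p = 0.00730). Usp15, a deubiquitinase of the pathway, held 36.0, 34.2 and 28.8 FPKM in controls and 22.6, 22.9 and 21.9 FPKM in dKO libraries (limma adjusted p = 0.0385). Usp15 lost its call with the lane as a block (limma adjusted p = 0.0616), after quantile normalization (0.0781) and when any 1 control or dKO replicate 1 was left out (0.0523 to 0.172).

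Among 11 genes known as BMP targets in other cells, 5 were tested, and 4 of these rose and 0 fell, against 14.0% and 7.04% of all tested genes. Id1 and Msx2 passed the filter only through their dKO values, so their direction was fixed. Of all kept genes with a control mean under 1 FPKM 77.4% rose. The others tested had higher control means, where 7.77% of all genes rose. Of these Id3 and Hey1 rose and Prdm1 did not pass (limma adjusted p = 0.627). Id1 and Id3, inhibitors of basic helix-loop-helix factors, held 0.0881, 0.390 and 0.302 FPKM and 3.26, 2.14 and 1.52 FPKM in controls. In dKO libraries Id1 held 2.80, 2.19 and 1.95 FPKM (limma adjusted p = 0.000958) and Id3 held 20.7, 7.36 and 7.93 FPKM (0.00867), with replicate 1 the highest for both. The homeobox gene Msx2 held 0.347, 0.0386 and 0.0161 FPKM in controls and 9.84, 7.74 and 4.91 FPKM in dKO libraries, a rise of 2.87 ± 0.26 on the log2 scale (SE; limma adjusted p = 0.000119). Hey1, also a Notch target, held 10.99, 10.1 and 7.99 FPKM in controls and 20.1, 16.8 and 26.6 FPKM in dKO libraries (limma adjusted p = 0.0090). Whether ligand or receptor RNA bears on these targets was not tested.

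Of 11 TGF-beta targets 2 were tested and 1 rose, against 14.0% of all tested genes. This was the fibronectin gene Fn1, at 0.930, 0.867 and 1.28 FPKM in controls and 6.22, 6.55 and 9.16 FPKM in dKO libraries (limma adjusted p = 0.000297). Among controls only replicate 3 reached 1 FPKM, so Fn1 passed the filter through its dKO values. Of 11 nuclear partners of SMADs 6 were tested, of which 2 rose and 0 fell, against 14.0% and 7.04% of all tested genes. Eomes passed the filter only through its dKO values, so its direction was fixed. Among all kept genes with a control mean under 1 FPKM 77.4% rose. Eomes, a T-box factor of early embryos, held 0.0279, 0.0412 and 0.0365 FPKM in controls and 8.18, 5.70 and 4.90 FPKM in dKO libraries (limma adjusted p = 5.08e-05). Runx2, a bone regulator, held 1.15, 1.70 and 1.42 FPKM in controls and 7.25, 7.52 and 8.58 FPKM in dKO libraries (limma adjusted p = 0.000281).

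Of 6 genes that GDF9 and BMP15 are known to influence in cumulus cells, 2 were tested and both rose. Both passed the filter only through their dKO values, and 77.4% of all genes with so low a control mean rose. The rest of the list was below the filter and did not separate the groups. Ptx3 was at 0 in every library. The groups overlapped for Npr2 (0.105 and 0.169 FPKM on average), Tnfaip6 (0.00212 and 0.000867 FPKM) and Slc38a3 (0 and 0.0236 FPKM). Ptgs2, the inducible cyclooxygenase, held 0.547, 0.515 and 0.728 FPKM in controls and 17.6, 16.4 and 13.7 FPKM in dKO libraries, with a rise of 3.40 ± 0.20 on the log2 scale (SE; limma adjusted p = 1.76e-05). Has2, the hyaluronan synthase of the cumulus matrix, held 0.685, 0.203 and 0.125 FPKM in controls and 1.89, 1.13 and 1.62 FPKM in dKO libraries (limma adjusted p = 0.0142). Has2 lost its call after quantile normalization (limma adjusted p = 0.271) and without control replicate 2 or 3 (0.0682 and 0.0699).

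**Figure D4:**
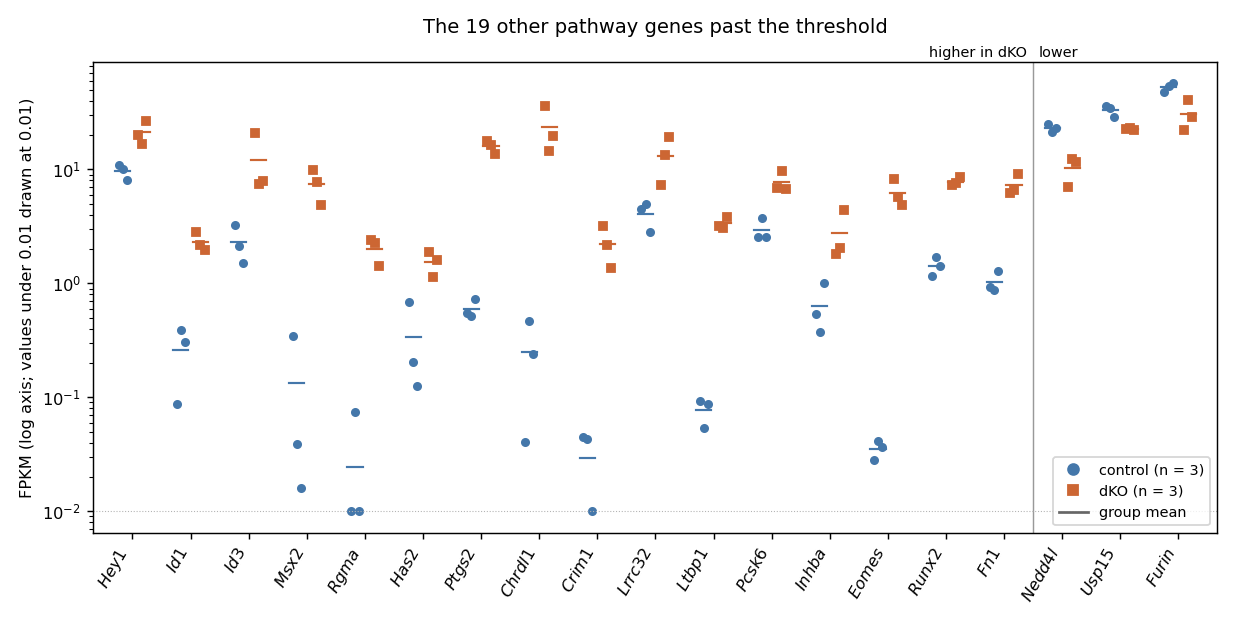
FPKM of the 19 other pathway genes that passed the test, in each library on a log axis, with 16 higher in dKO on the left, 3 lower on the right and group means as short lines. Chrdl1 reaches 36.2 FPKM in a dKO library from at most 0.465 FPKM in controls, and Nedd4l, Usp15 and Furin stand at 21.2 FPKM or more in every control.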

How the data were processed

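Total RNA of germinal vesicle oocytes was amplified (Ovation v2) and sequenced on an Illumina HiSeq, per the labels' protocols. The deposited values are FPKM, with 1 column per library and no pooling. The submitters' processing notes name TopHat2 2.0.11, Cufflinks 2.0.2 and the mm9 build. No source used here says how each was used, or gives the annotation, strand or library scaling, so reads of overlapping genes may be shared. In GENCODE M21 the exons of 14 of the 44 family genes overlap another gene. Among tested genes these include Tgfb2, Tgfb3, Bmp5 and Bmpr1a, with genes on the other strand. Smad5 and Tgfbr3 overlap genes on the same strand (Gm27301 and Gm43422). Of 24525 rows, 497 exact repeats were removed. A pseudocount of 1 was added to the FPKM. Genes that reached 1 FPKM in 3 or more libraries were fitted in limma 3.58.1 (R 4.3.3; lmFit, eBayes with trend, two-sided), with p-values adjusted by Benjamini and Hochberg over 11334 genes at a threshold of 0.05. Changes on this log2 scale understate those of low genes. On simulated data of 11334 genes the fit recovered 91% of changes of 1 log2 unit and 100% of changes of 2. It made 6 false calls. Changes were simulated only in genes with a control mean of at least 5 FPKM, with the same spread in both groups. These rates hold only for the simulated levels and spread. In the measured data the median SD of log2 values over tested genes was 0.141 in controls and 0.316 in dKO libraries. Recovery with this unequal spread, or for genes under 5 FPKM in controls, was not tested. FPKM keep no absolute depth, and counting intervals are therefore not given.

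Each replicate number marks 1 flow-cell lane, per the labels, and so pairs 1 control with 1 dKO library. Their deviations from the group means correlated at 0.147, 0.107 and 0.0637. The fit reported has no block. The labels also give the dKO libraries 1 index sequence and the controls another, and this cannot be told apart from genotype. The family, the lists and the tests were chosen with earlier results of these data known. Every family gene is given by value or range, and from each other list up to 3 rising and 3 falling genes of the largest change. Hey1, Prdm1, Grem1, Twsg1, Strap, Tob1 and marker genes other than the 2 most abundant of a list were named after their values were seen. So were Npr2, Ptx3, Slc38a3 and Tnfaip6. Alternatives were other pseudocounts, filters and scalings, the block, array weights and the removal of each library.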

Additional observations from a re-analysis of the deposited data

How the results depend on the processing

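Bmp2, Bmp4, Bmp7, Gdf11, Acvr1 and Tgfb2 passed the threshold in the same direction under every alternative that tested them (15 alternatives for Tgfb2 and Acvr1, 14 for the others, which the filter at 5 FPKM leaves out). Calls of Bmp15, Tgfb3 and Tgfbr1 were lost, and those of Bmp5, Bmpr2, Acvr2b and Smad5 gained, under the alternatives given with each gene or, for Bmp5, with array weights, no filter, quantile normalization and without dKO replicate 2 or 3 (limma adjusted p 0.0255 to 0.0492). Family genes that rose numbered 1, other pathway genes 8 and all genes 655 with the filter at 5 FPKM, which tests fewer genes, and 1 family gene fell with no filter. Leaving out 1 library gave 5 to 8 rising and 1 to 3 falling family genes (1 without any 1 control), 14 to 18 rising and 1 to 3 falling other pathway genes (1 without any 1 control or dKO replicate 1), and 1087 to 1869 rising and 231 to 1465 falling genes in all. With libraries centred on their mean 1572 genes fell in all. With the replicate block 8 family genes rose and 2 fell, 19 other pathway genes rose and 2 fell, and beyond Bmp15, Smad5, Acvr2b, Usp15, Grem1, Strap and Tob1 it changed no call of a family or other pathway gene. The median log2 change of the family was 0.46 against -0.019 for all genes in the reported fit, 0.030 against -0.10 with the filter at 5 FPKM and 0.062 against 0.029 without a filter. Changes near 0 turned sign: Bmpr1a from 0.00057 to -0.0018 and -0.00067 at pseudocounts of 0.1 and 0.5, -0.10 with centring, and -0.18 to 0.21 when 1 library was left out; Smad4 from -0.032 to 0.071 with quantile normalization, 0.010 with array weights and -0.13 to 0.15 when 1 library was left out; and Tgfbr3 to -0.047 and Smad2 to -0.010 with centring. The cause of these changes was not tested. Depth limits the genes under 1 FPKM, most in dKO replicates 1 and 2.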
